A study of Mus musculus with 6 samples.

Results

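Meg3, Rian and Mirg are imprinted long noncoding RNA (lncRNA) genes of the Dlk1-Dio3 region of mouse chromosome 12, and the subject here is the AGO2 target peaks between the start of Meg3 and the end of Mirg. Of the 2197 peaks deposited for the series, 31 had their midpoint on the plus strand between positions 109540996 and 109749458 of mm10. Within the window a peak was taken by its position and strand. The window itself was picked with earlier results of this peak list known, so the numbers of peaks are given without a test. By gene span, 19 belonged to Meg3, 11 to Rian and 0 to Mirg, and 1 lay between Rian and Mirg. Mirg is therefore in the text for its miRNA hairpins and not for peaks.

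The libraries came from cortex of mice at postnatal day 14 that carried a VGLUT2-Cre driver and a conditional Spy3-AGO2 allele, under which AGO2 bears a tag that couples to SpyCatcher3 on a resin in the cells where Cre acts. The labels call the cell type pyramidal neurons, and every library of the series has this genotype, age and tissue, with no untagged control among the samples used here. The 6 libraries form 3 groups of 2: AGO2-bound target, AGO2-bound miRNA and input from whole lysate. Peaks were used as 1 list for the series, which has no value for a single target or input library, so a peak has no replicate check and no measured height. The sources used here do not say how peaks were found or whether input entered, so a peak is a place in the authors' list, and binding by AGO2 is not measured apart from it. The 2 miRNA libraries held 66854 counts in replicate 1 and 75658 counts in replicate 2, and the labels do not say whether they came from separate animals.

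AGO2 binds microRNAs (miRNAs), short RNAs cut from hairpins, and through them the RNAs that they pair with. The Dlk1-Dio3 region is expressed according to the parent of origin: Meg3, Rian and Mirg are transcribed from the maternally inherited chromosome, and the protein-coding genes Dlk1, Rtl1 and Dio3 from the paternal one. Meg3 is a spliced, mainly nuclear lncRNA that is abundant in neurons. Rian carries C/D box snoRNAs in its introns, small RNAs of a class that guides methylation of other RNAs, and those of this region have no established target. Mirg is a host of a large cluster of miRNA hairpins.

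The gene table (GRCm38.p6, the assembly of mm10) placed Meg3 at 109540996 to 109571729, a span of 30.73 kb, Rian at 109603945 to 109661716, a span of 57.77 kb, and Mirg at 109734981 to 109749458, a span of 14.48 kb. The promoter table gives all 3 genes the plus strand, which is the strand of every peak in the window, and 0 peaks of the minus strand lay there. The preceding plus-strand peak of the chromosome ended 7.74 Mb before Meg3, and the next one began 2.04 Mb after Mirg. The usual distance between peaks was not measured, so these distances do not show that the window is unusually isolated. A span includes introns, and exons were not used here, so a peak is placed in a gene and not in an exon or an intron.

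**Figure D1:**
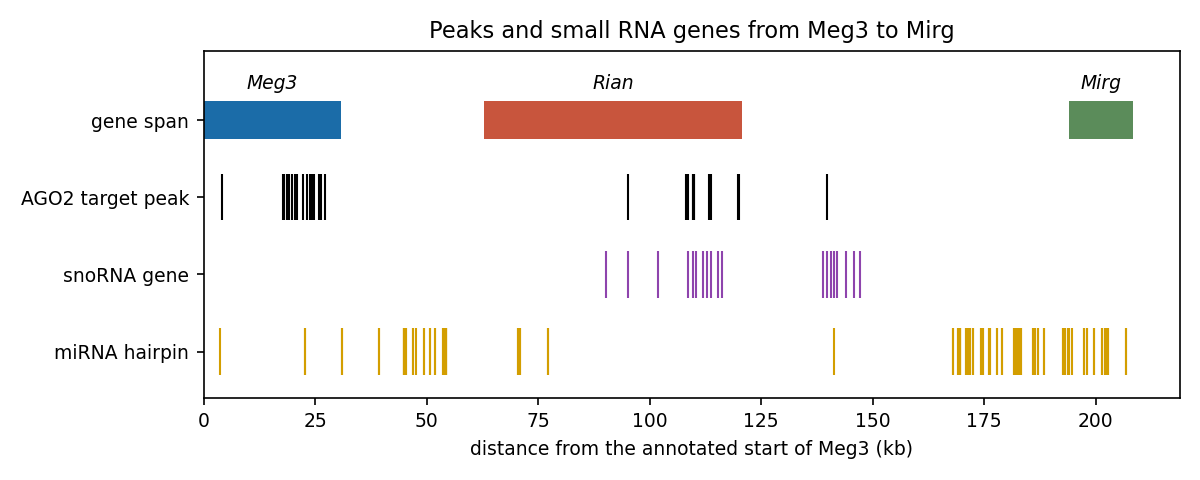
Positions of the 3 gene spans, the 31 peaks, the 19 snoRNA genes and the 60 miRNA hairpin genes of the window, as distance from the annotated start of Meg3 in kb, with 1 tick per feature. Peaks gather in the second part of Meg3 and of Rian, and no peak stands beyond the one on a snoRNA between Rian and Mirg.

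The small RNAs that the 3 spans hold are shown first, because the counts of the miRNA libraries, described after the peaks, are for them. Mature sequences are from RefSeq (GRCm38.p6), written 5′ to 3′, and the capitals mark the seed, bases 2 to 8, which pairs with a target. The 10 listed are the hosted miRNAs with the highest mean share of counts, in that order.
miR-369-5p: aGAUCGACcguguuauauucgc
miR-410-3p: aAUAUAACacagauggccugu
miR-369-3p: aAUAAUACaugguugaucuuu
miR-154-5p: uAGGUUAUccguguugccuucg
miR-541-5p: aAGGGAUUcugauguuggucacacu
miR-377-3p: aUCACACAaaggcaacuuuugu
miR-154-3p: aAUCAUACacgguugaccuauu
miR-770-5p: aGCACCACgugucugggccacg
miR-370-3p: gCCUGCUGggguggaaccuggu
miR-409-3p: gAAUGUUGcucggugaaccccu

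No pair among these 10 had the same seed. For 9 of them no other mature miRNA in the RefSeq table had that seed. The exception was miR-410-3p, whose seed is also that of miR-344d-3p and miR-344e-3p, and these held 7 counts together in replicate 1 and 7 in replicate 2. On the plus strand of mm10, miR-770-5p lies in Meg3 at chr12:109563710-109563731 and miR-370-3p in Rian at chr12:109618305-109618326. The other 8 lie in Mirg, from miR-154-5p at chr12:109738438-109738459 to miR-410-3p at chr12:109743764-109743784.

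The Mir770 hairpin is printed whole because it is the hairpin that the Meg3 peaks flank on both sides. It spans 94 nt of the plus strand, chr12:109563692-109563785, and the capitals mark its mature arms, miR-770-5p and then miR-770-3p.
Mir770: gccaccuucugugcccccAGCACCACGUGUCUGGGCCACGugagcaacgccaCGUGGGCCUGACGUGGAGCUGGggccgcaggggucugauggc

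Meg3 held 19 peaks, 0.618 per kb of span, which covered 1767 bases or 5.75% of the span. They did not run evenly along the gene. The first peak, 60 nt wide, lay at 109545020 to 109545079, 4.05 kb from the start. It began 399 bases after the hairpin of Mir1906-1 and ended 318 bases before the second annotated start of Meg3, at 109545398. A stretch of 13.75 kb without a peak followed. The other 18 peaks stood between 109558834 and 109568303, a stretch of 9.47 kb that they covered to 18.0%, at 1.90 peaks per kb. The last of them, at 109568229 to 109568303, ended 3.43 kb before the end of the span, and 0 of the Meg3 peaks lay in the last 10% of it.

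The Mir770 hairpin stood inside that stretch and no peak touched it. The peak before it ended 243 bases upstream and the peak after it began 251 bases downstream. That upstream neighbour, at 109563206 to 109563448, was also the widest peak of Meg3 and of the whole window, with 243 nt. The downstream neighbour, at 109564037 to 109564165, was 129 nt wide. On the upstream side, without the isolated first peak, 9 peaks had a median width of 61 nt and covered 16.1% of their 4.62 kb. On the downstream side, 9 peaks had a median width of 102 nt and covered 22.6% of their 4.27 kb. Peaks over 100 nt numbered 2 upstream and 5 downstream, where the next widest, of 192 and 184 nt, also lay.

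Several Meg3 peaks came in close pairs. Of the 17 gaps between neighbours in the stretch, 4 were under 50 bases, with 22 bases as the smallest, against a median gap of 504 bases and a largest gap of 1167. The pair with the smallest gap was 109558834 to 109558894 and 109558917 to 109558983, which opened the stretch. The narrowest Meg3 peak, at 109560766 to 109560799, was 34 nt wide.

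Of the Meg3 peaks, 8 also lay in the span of Rtl1 (109564900 to 109604418), a retrotransposon-derived gene that is known to be transcribed from the opposite strand. All 8 were on the plus strand, the strand of Meg3. The first of the 8 began at 109564900, the first base of the Rtl1 span. Credit of these 8 to Meg3 rests on strand, since the gene table used here gives none for Rtl1.

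**Figure D2:**
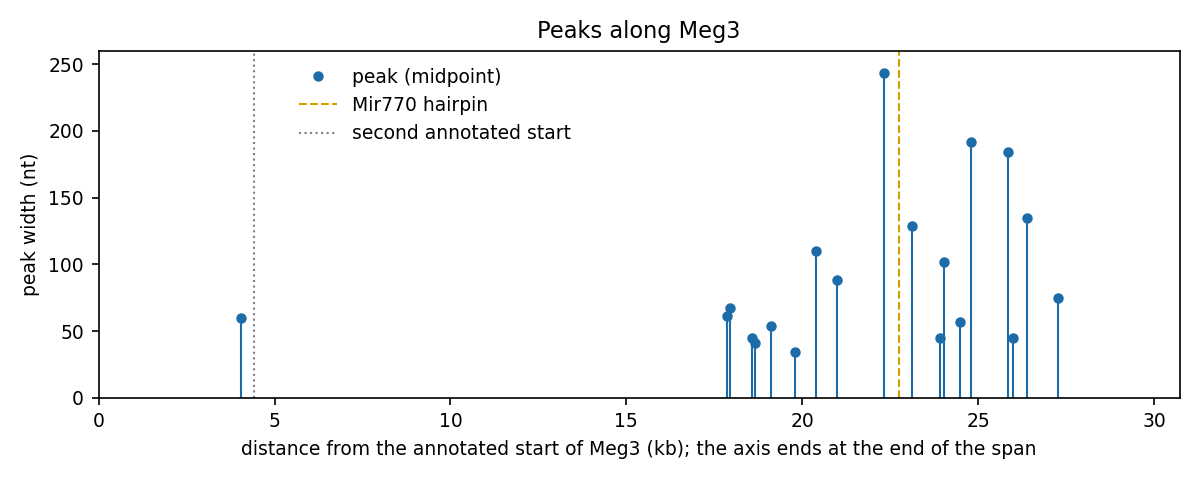
Each of the 19 Meg3 peaks at its midpoint, as distance from the annotated start in kb, with its width in nt on the vertical axis. The dashed line is the Mir770 hairpin and the dotted line the second annotated start; 1 peak of 60 nt stands near the start, and 18 peaks of 34 to 243 nt stand on both sides of Mir770.

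Rian held 11 peaks, 0.190 per kb of span, which covered 774 bases or 1.34% of the span. The first lay 32.07 kb from the start of the gene, and 10 of the 11 lay past 75% of the span. The last, at 109660994 to 109661203, was the widest of Rian with 210 nt and ended 513 bases before the end of the gene. The peak before it, at 109660747 to 109660792, was 46 nt wide.

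Of the 11 Rian peaks, 4 overlapped a snoRNA gene, and so did the 1 peak between Rian and Mirg. With the whole window counted, 5 of 31 peaks lay on a snoRNA gene, 0 on a miRNA hairpin gene and 26 on neither. AF357425 (MBII-48), at 109636012 to 109636080, is 69 nt long, and its peak of 67 nt began 3 nt after its first base and ended 1 nt past its last. DQ267100, at 109649617 to 109649687, is 71 nt long, and its peak of 66 nt lay wholly within it, starting 3 nt in and ending 2 nt short. AF357355 (MBII-343), at 109654627 to 109654697, is also 71 nt long, and its peak of 65 nt lay 3 nt inside it at both ends.

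These 3 peaks thus had the outline of the annotated snoRNA to within 5 nt at each end. The same held for the peak between the spans, of 73 nt, which lay on Gm23736 (109680800 to 109680874, 75 nt) and covered 97.3% of it. AF357359 (MBII-426) differed: its annotation is 30 nt long, at 109650709 to 109650738, and its peak, at 109650670 to 109650769, was 100 nt wide and ran past both ends, by 39 and 31 nt.

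**Figure D3:**
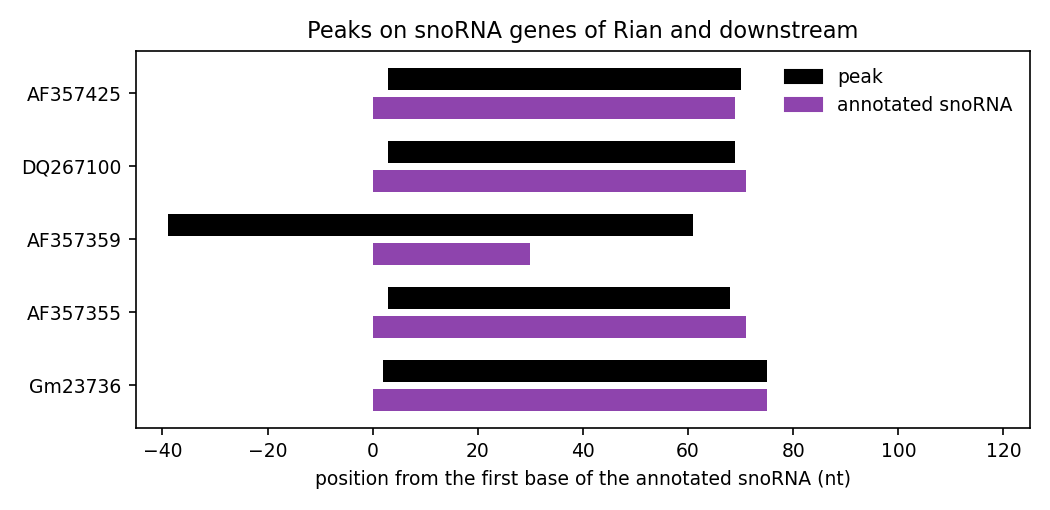
The 5 snoRNA genes of the window with a peak, drawn from the first base of the annotation in nt, with the peak as the upper bar of each pair and the annotated snoRNA as the lower bar. In 4 pairs the bars end within 5 nt of each other on both sides, and the peak on AF357359 is 100 nt wide on an annotation of 30 nt.

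Among the 7 Rian peaks off the snoRNAs, 3 followed the AF357359 peak within a stretch of 288 bases, from 109650670 to 109650957. These 3 were 34, 39 and 23 nt wide, and the 3 gaps were 24, 34 and 34 bases. The peak of 23 nt was the narrowest of the window. A further 2 were each 62 nt wide and lay upstream of a snoRNA that has a peak of its own, one 373 bases before DQ267100 and the other 264 bases before AF357355. No gene of the table lies under those 2 peaks other than Rian. The promoter table has 4 windows of 300 bases for the 3 genes, and 0 of the 31 peaks overlapped one.

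The window holds 19 snoRNA genes, 11 in Rian and 8 between Rian and Mirg, and 5 of the 19 had a peak (26.3%, exact 95% interval 9.15 to 51.2). Of the 1321 snoRNA genes elsewhere in the table, 74 had a peak (5.60%, exact 95% interval 4.42 to 6.98). Both intervals cover counting error only and treat genes as independent, and the difference was not tested because the members were chosen from this list. The genes elsewhere include the repeat copies in Snhg14, where 4 of 206 had a peak, and these lower the share elsewhere. For this comparison peaks of either strand were counted. Within Rian, 4 of 11 had a peak, and those without one included AF357426 (MBII-49) and DQ267101. Where a snoRNA had a peak, the peak covered a median of 95.7% of it in the window and 96.2% elsewhere. Both ends matched to within 5 nt for 4 of 5 (80.0%) in the window and for 42 of 74 (56.8%) elsewhere. The snoRNAs of Rian include related copies, and the sources used here do not say how reads that match several copies were placed.

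No miRNA hairpin of the window carried a peak (0 of 60, which allows a share of up to 5.0% by a floor of 3 genes, or 5.96% by the exact interval). This was not particular to the window, since 0 of the 1165 hairpin genes elsewhere in the table carried one either (up to 0.258% by the same floor, or 0.316% by the exact interval). Every hairpin gene of the table was looked up, so 0 is the count in this list. The limits treat the genes as independent draws and do not mean that some of these hairpins carry a listed peak. The Mirg span held 10 hairpins and no peak on any part of it. The nearest peak upstream of Mirg was the one on Gm23736, which ended 54.11 kb before the gene.

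The names of the peaks carry numbers that rise with position and reach 14469, of which 15.2% are in the deposited list. The sources used here do not say what the missing numbers stand for. The Meg3 peaks took 19 of the 91 numbers from the first to the last of them (20.9%), and the Rian peaks 11 of 19 (57.9%). A further 21 numbers fell between the last Meg3 and the first Rian peak. Between the peak on Gm23736 and the next plus-strand peak, beyond Mirg, lay 43 numbers. Whether minus-strand peaks beyond Mirg carry any of them was not checked.

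The miRNA libraries gave counts of mature miRNAs from hairpins in the 3 spans, which the position rule for the peaks did not use. The members were still chosen with earlier results of these data known. Levels of the Meg3, Rian and Mirg transcripts themselves were not measured. The hairpins inside the 3 spans have 28 mature miRNAs in the count table, of which 19 were counted in both libraries and 8 in neither. Mirg hairpins held 1773 counts in replicate 1 and 2050 in replicate 2, a share of 2.68% ± 0.0407 (SD, n = 2) of all miRNA counts. Meg3 hairpins held 77 and 108 counts, 0.129% ± 0.0195 (SD, n = 2). Rian hairpins held 101 and 83 counts, 0.130% ± 0.0293 (SD, n = 2). The share of Mirg was thus above those of Meg3 and Rian in each library, while the order of Meg3 and Rian turned between the libraries. The number of hairpins also differs, with 10 in Mirg, 3 in Rian and 2 in Meg3. By the number of peaks the order of the genes was Meg3, Rian and Mirg.

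The hairpins between the spans, which include the miRNAs antisense to Rtl1 and most of the cluster upstream of Mirg, held 13.4% ± 0.0735 of the counts (SD, n = 2) over 45 genes on either strand, so the 3 spans together, with 2.94% ± 0.0309 (SD, n = 2), account for a small part of the 16.4% ± 0.0426 counted for the whole window. The edge of Mirg matters for this split, as Mir485 ends 6 bases before the annotated start of the gene and was counted as between the spans.

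In Mirg, the Mir369 hairpin led. miR-369-5p had 415 and 528 counts (0.659% ± 0.0545, SD, n = 2), rank 35 of all miRNAs, and miR-369-3p had 259 and 365 counts (0.435% ± 0.0672, SD, n = 2). Both arms were higher in replicate 2 as a share. miR-410-3p had 370 and 361 counts (0.515% ± 0.0540, SD, n = 2) and its partner arm miR-410-5p had 0 in both libraries, so every count of Mir410 came from 1 arm. The means of miR-369-5p and miR-410-3p differed by more than either SD. The order of miR-410-3p and miR-369-3p turned between the libraries, so these were not resolved.

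miR-154-5p had 189 and 228 counts (0.292% ± 0.0132, SD, n = 2) and miR-154-3p had 124 and 113 (0.167% ± 0.0255, SD, n = 2). miR-541-5p had 133 and 130 counts (0.185% ± 0.0192, SD, n = 2), and miR-377-3p had 120 and 132 (0.177% ± 0.00355, SD, n = 2). The order of these last 2 and of miR-154-3p differed between the libraries. miR-409-3p had 54 and 57 counts (0.0781% ± 0.00384, SD, n = 2). Other Mirg miRNAs were lower, and miR-453 had 0 counts in both libraries.

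Both arms were well counted for 3 Mirg hairpins. The more abundant arm took 60.3% ± 1.73 of the counts of Mir369, 63.6% ± 4.58 of Mir154 and 58.8% ± 0.833 of Mir409 (SD, n = 2 each). For Mir377, Mir541, Mir410, Mir496a and Mir3072, the more abundant arm took 97.1 to 100% in each library.

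In Meg3, Mir770 gave all of the counts. miR-770-5p had 65 counts in replicate 1 and 90 in replicate 2 (0.108% ± 0.0154, SD, n = 2), and miR-770-3p had 12 and 18 (0.0209% ± 0.00413, SD, n = 2), so the 5p arm took 83.9% ± 0.765 of the hairpin. The other hairpin of Meg3, Mir1906-1, had 0 counts for miR-1906 in both libraries, so its share may have been as high as 0.00449% of replicate 1, or 0.00397% of replicate 2. In Rian, miR-370-3p had 78 and 64 counts (0.101% ± 0.0227, SD, n = 2) and miR-341-3p 20 and 16 (0.0255% ± 0.00620, SD, n = 2). miR-1188-5p, also of Rian, had 2 and 1 counts.

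**Figure D4:**
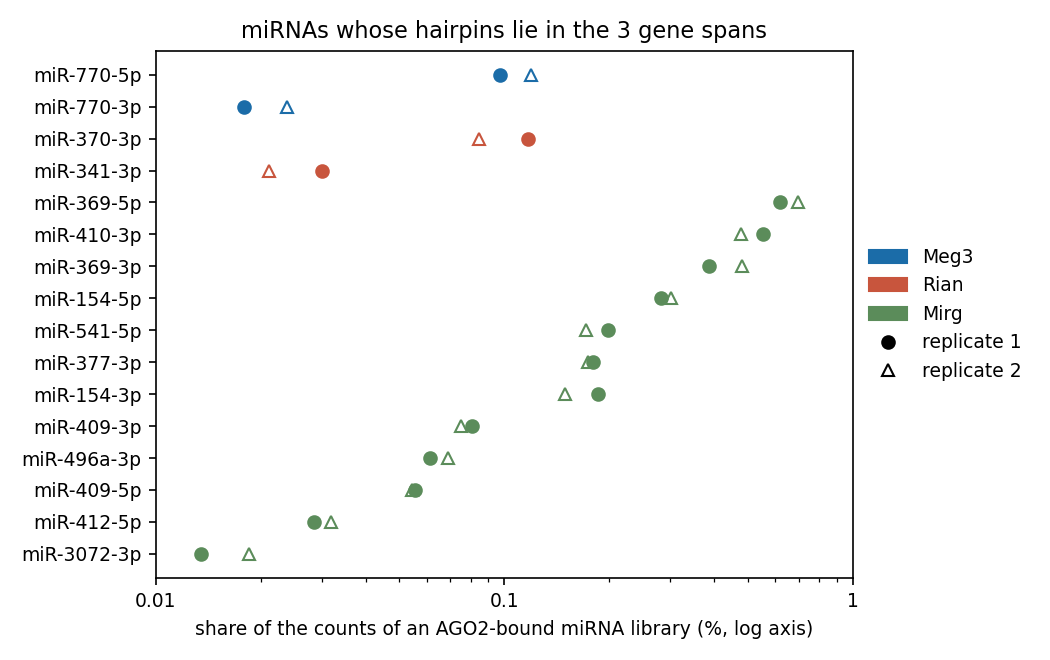
Share of the counts of each AGO2-bound miRNA library, in percent on a log axis, for the 16 miRNAs of the 3 spans with at least 10 counts summed over both libraries, coloured by host gene. Filled circles are replicate 1 and open triangles replicate 2; the Mirg miRNAs reach 0.659% (mean of miR-369-5p) and those of Meg3 and Rian stay near or below 0.1%.

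The replicates were close for these miRNAs. Over the 16 with at least 10 counts summed, the log2 ratio of shares, replicate 2 over replicate 1, ran from -0.50 for miR-341-3p to 0.46 for miR-3072-3p, with an SD of 0.30. Over all 310 miRNAs with at least 10 counts summed and a count in both libraries, its SD was 0.61, with no matching on abundance.

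Meg3 and Rian were among the lncRNA genes with the most peaks, though not with the most per kb of span. Of 12731 lncRNA genes in the table, 55 had a peak, 43 of them a single one, and 7 had at least 5. Meg3 with 19 and Rian with 11 came after Malat1, a nuclear lncRNA, which had 38. They were followed by Snhg11 with 8, Gas5 and Snhg14 with 7 each and Snhg1 with 6, which are hosts of snoRNAs. Per kb of span, Meg3 with 0.618 ranked 11 and Rian with 0.190 ranked 21 of the 55, below shorter genes such as Snhg1 with 2.11 and Gas5 with 1.78. Abundance of the transcripts was not measured here, so these ranks are not set against it.

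By snoRNA content the 7 genes fell apart. Meg3 and Malat1 have no snoRNA gene in their spans, and 0 of their 19 and 38 peaks lay on one. In Rian the share of peaks on a snoRNA was 36.4%, 4 of 11. It was 85.7% in Gas5 (6 of 7) and 100% in Snhg1 (6 of 6), both short hosts of snoRNAs found in most cells. In Snhg14, the imprinted host of the Snord115 and Snord116 repeats, 4 of 7 peaks lay on a snoRNA, and these fell on 4 of its 206 snoRNA genes. In Rian they fell on 4 of 11. Snhg11 holds 2 snoRNA genes, and 0 of its 8 peaks lay on them.

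**Figure D5:**
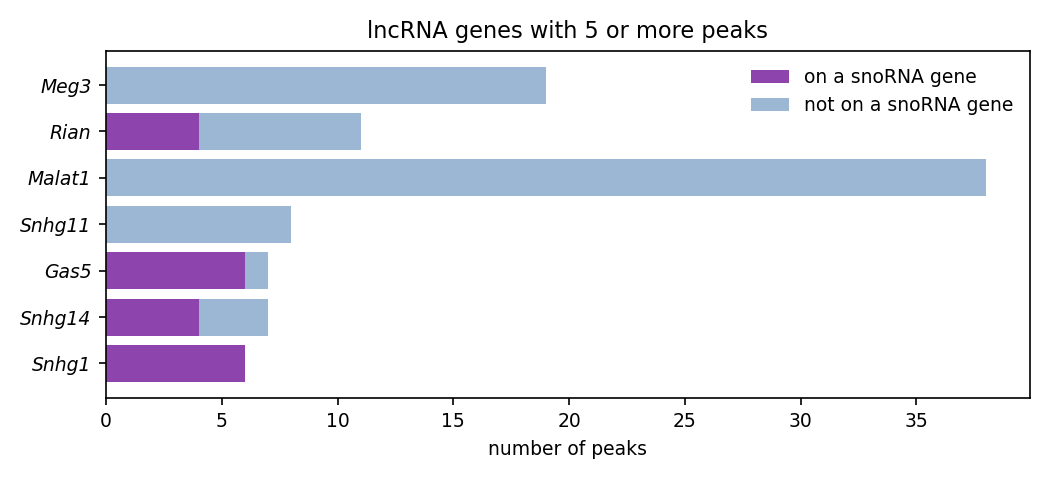
Number of peaks in each of the 7 lncRNA genes with at least 5, split into peaks on a snoRNA gene and peaks off one. Meg3, with 19, and Malat1, with 38, have no peak on a snoRNA, Rian has 4 of 11, and in Gas5 and Snhg1 6 peaks each lie on snoRNAs.

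The Meg3 stretch, with 1.90 peaks per kb, 18.0% of the bases covered and a median gap of 504 bases, was set beside Malat1 and the end of Slc1a2, a glutamate transporter gene with 45 peaks. Between its first and last peak, Malat1 had 5.96 peaks per kb, 42.1% covered and a median gap of 36 bases. The last 10 kb of Slc1a2 held 40 peaks. Over the 9.29 kb from the first to the last of these, there were 4.31 peaks per kb, 28.0% covered and a median gap of 53 bases. The Meg3 stretch was sparser than both on each measure. Gaps under 50 bases were 4 of 17 in the Meg3 stretch, 23 of 37 in Malat1 and 18 of 39 in the Slc1a2 stretch. Peaks per kb, gaps and widths depend on how signal was split into peaks, which the sources used here do not describe. The median width was 67 nt over all Meg3 peaks, against 50.5 nt in Malat1 and 57 nt in Slc1a2. Over 100 nt were 7 of the 19 Meg3 peaks (36.8%), 1 of the 11 Rian peaks (9.09%) and 335 of the 2166 peaks outside the window (15.5%). The median width was 62 nt in Rian and 53 nt outside the window.

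In a list of 10 genes of the region and its flanks, 3 had a peak: Meg3, Rian and, through the peaks it has in common with Meg3, Rtl1. No strand was given for Rtl1, so peaks of both strands were counted there, and its 8 peaks are those credited to Meg3 above. Dlk1, a Notch-related growth regulator, Dio3, a deiodinase that inactivates thyroid hormone, the antisense lncRNA Dio3os and the flanking genes Begain, Wdr25 and Ppp2r5c had 0. Most genes had none: a peak lay in 838 of 21896 protein-coding genes of the table (3.83%) and in 0.432% of lncRNA genes, so the absence of one is no mark of this region. Among 13 imprinted or X-inactivation lncRNAs, 3 had a peak, namely Meg3, Rian and Snhg14, and 10 had none, among them Mirg, H19, Kcnq1ot1, Airn, Peg13 and Xist. Of 18 other lncRNAs, 8 had a peak, including Miat with 1 and Norad with 2. Neat1 had 0.

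The cell type named in the labels was checked by peaks in marker genes. Of 9 markers of glutamatergic neurons, 5 had a peak, with 5 peaks in Slc17a7, a marker of cortical excitatory neurons, and 0 in Slc17a6, the gene of VGLUT2. Markers of GABAergic neurons had a peak in 1 of 6, of astrocytes in 1 of 6 (Slc1a2, 45 peaks), and of microglia and of endothelial and mural cells in 0 of 6 each. Mbp, a myelin gene of the oligodendrocyte lineage, had 2 peaks, so the list also held peaks in genes that mark glia. Against the share of 3.83% over all protein-coding genes, 0 or 1 gene of 6 cannot be told from the background, and these counts do not show which cells were absent. That share counts genes with any peak and takes no account of the number of peaks, such as the 45 in Slc1a2. Meg3 and Rian are not limited to 1 of these cell types, and which cells their peaks came from was not tested.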

How the data were processed

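AGO2-bound RNA of mouse cortex was isolated on a SpyCatcher3 resin, cut from a gel and sequenced, per the labels' protocols. Per the submitters' processing notes, which give no role or order, the tools included deepTools 3.1.3, DESeq2 1.36.0, Bowtie2 2.4.2, STAR 2.5.2a, cutadapt 2.10 and UMI-tools, on mm10; no peak caller, settings or pooling of libraries could be taken from the sources used here. Each miRNA library was deposited as raw counts per mature miRNA, under a name that says duplicates were kept, so floors and intervals cover counting error only. The score in the authors' deposited peak list is 0 for every peak. A row of unassigned reads held 0 counts and was left out.

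Peaks, printed counting from 1, were given to the gene span (GRCm38.p6) that held their midpoint, on the gene's strand where the promoter table gives one. A small RNA gene was marked where at least 1 base overlapped. All 28 mature miRNAs of the 3 spans matched RefSeq by name. Of 20 genes in the list of other lncRNAs, 18 were matched to separate genes. Shares are counts over the library total. Intervals are exact (Clopper-Pearson, 95%, scipy 1.17.1); edgeR 4.0.16 gave TMM factors. Assignment, merging and overlap were checked on simulated peaks. No test was made: there is 1 group of counts and 1 peak list. Seed matches in peaks, listed in the plan, were not run, as no genome sequence was used here. The count over the oligodendrocyte marker list is not reported here. The members and lists were chosen with earlier results of these data known. Named were the 3 genes, small RNAs under a peak, the 10 leading hosted miRNAs, the widest and narrowest peaks, and listed genes; the other peaks, miRNAs and snoRNAs described, the split of Meg3 at Mir770 and the comparison of 7 lncRNAs were chosen after values were seen.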

Additional observations from a re-analysis of the deposited data

How the results depend on the processing

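Of 37 alternatives over 10 results, 34 kept the count within 1.5 times, or the value within its spread, and 3 did not. Many of the 34 could not have moved, so their number is no measure of robustness. In Meg3 these were the rules on strand, span edge, small RNA overlap and width over 30 nt. Its narrowest peak has 34 nt, and none of its peaks lay on a small RNA or reached a span edge. In Rian they were the rules on strand and span edge. Without the peaks on snoRNAs, Rian had 7 peaks in place of 11. Without miR-128-3p in the denominator, the hosted miRNAs held 3.39% of the counts, and with every hairpin of the window they held 16.4%, against 2.94%. Leaving out a library gave 2.92 to 2.96%. Merging peaks under 50 bases apart gave 15 peaks in Meg3 and 8 in Rian. Mirg had 0 peaks under each of the 6 rules tried, which could not have given another count. The nearest peak upstream ended 54.11 kb before Mirg, and the window held 0 peaks of the minus strand. The alternatives for Mirg are among the 34 that kept the count. No paired analysis was possible because no result comes from a comparison of groups. Seed matches in peaks, over 7 or 8 bases, were not run. With 1 peak list and no heights, no peak of the window can be called reproducible or ranked by strength.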
